A study of Homo sapiens with 4 samples.

Results

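NMRK2 and the genes of NAD synthesis were examined in 92.1, a cell line from uveal melanoma, which arises from pigment cells of the eye. The set held 10 genes. NMRK2 was placed in it because it was the 1 gene below the parental level past the test threshold in an earlier comparison of these same libraries, and the other 9 were listed for their known roles in making NAD and its phosphate form. Of the 10, 9 had a value among the 11650 genes in the files, and NMNAT3 was not analysed here. All 9 passed the filter on low values, a 4-library average of 1 FPKM or more, and were among the 10271 genes tested. FPKM counts fragments in proportion to transcript length and to library size, so it can be compared between genes.

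RNA was sequenced in 4 libraries of line 92.1, with 2 from the parental cells (labelled Ctrl) and 2 from a resistant derivative (labelled Res). The labels give no agent, dose, clone number or passage for the resistant cells, and no further treatment for either group. Whether separate cultures were used within a group is not stated, so every error below measures the spread between libraries, which may be technical. The comparison asks how transcript levels differ between parental and resistant cells.

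NAD carries electrons in metabolism and is also used up by sirtuins and poly(ADP-ribose) polymerases, so cells rebuild it constantly. Nicotinamide, nicotinamide riboside and nicotinic acid each enter through an enzyme of their own, and tryptophan supplies the de novo route. The entry products are joined to an adenylate by the NMNAT enzymes, and NAD kinases then turn part of the NAD into NADP. NMRK2, a nicotinamide riboside kinase, is best known from skeletal and heart muscle, whereas its relative NMRK1 is found in most tissues.

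The NMRK2 transcript stood far above all other members in parental cells and close to NAMPT in resistant cells. NMRK2 (ENSG00000077009.13_2) had 150 FPKM in parental replicate 1 and 166 in replicate 2, and 14.3 and 13.9 FPKM in the resistant replicates. Both resistant libraries were far below both parental libraries, and the replicates lay close together in each group. The group means were 158 ± 11.2 and 14.1 ± 0.309 FPKM (SD, n = 2 each), an 11.2-fold difference in mean FPKM. On a log2(FPKM + 1) scale, where differences of low genes are compressed, the difference was -3.40 ± 0.15 (resistant minus parental, SE from limma, a linear model that shares the spread between genes). NMRK2 was chosen for this contrast, so these values are a description and carry no test. In bulk RNA, fewer cells with the transcript and less transcript per cell cannot be told apart.

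Ranked by FPKM among the 11650 genes, NMRK2 was number 173 and 154 in parental cells and number 2322 and 2239 in resistant cells. It thus remained above the 80th percentile of listed genes in resistant cells (80.1 and 80.8), after 98.5 and 98.7 in parental cells. By size of difference in the lower direction it was number 2 on the log2 scale of the 10271 tested genes. The gene ahead of it, the read-through BLOC1S5-TXNDC5, was at 141 in both parental libraries, at 96.7 FPKM in resistant replicate 1 and at 0.102 FPKM in resistant replicate 2, so the size of its difference rests on resistant replicate 2.

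**Figure D1:**
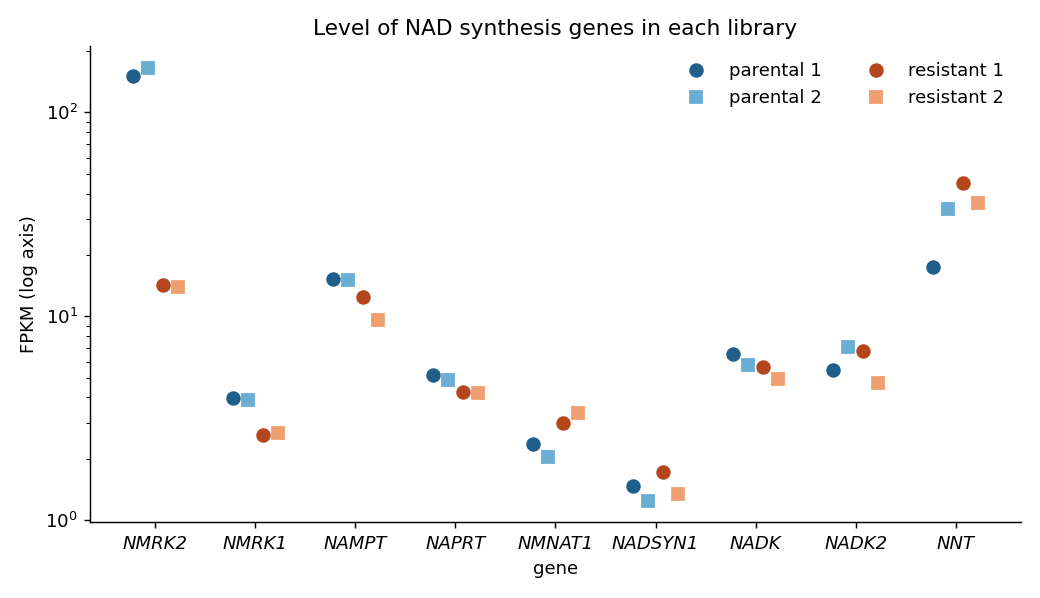
FPKM of the 9 NAD synthesis genes (x axis) in each of the 4 libraries on a log axis (y axis), with blue for parental, orange for resistant, circles for replicate 1 and squares for replicate 2. NMRK2 lies at 150 and 166 FPKM in parental and at 14.3 and 13.9 FPKM in resistant libraries, while the groups of the other genes lie close together.

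NMRK2 lies on chromosome 19 from 3933103 to 3942416 on the plus strand (GENCODE release 29 on GRCh38), where it is protein-coding, overlaps no other annotated gene and has no pseudogene named after it. Its promoter is shown because NMRK2 carries the largest difference of the set, with that of NAMPT, the entry enzyme for nicotinamide, for comparison. Each is the 250 bases upstream of a RefSeq transcript start (GRCh38.p14), 5′ to 3′ on the gene's strand, and capitals mark a TATAAA match. The NMRK2 window is chr19:3933339-3933588 on the plus strand and the NAMPT window chr7:106284984-106285233 on the minus strand. Both windows lie inside the gene as release 29 annotates it, with its outermost start farther upstream (NAMPT at 106286326). They are therefore windows of 1 RefSeq start each.
NMRK2: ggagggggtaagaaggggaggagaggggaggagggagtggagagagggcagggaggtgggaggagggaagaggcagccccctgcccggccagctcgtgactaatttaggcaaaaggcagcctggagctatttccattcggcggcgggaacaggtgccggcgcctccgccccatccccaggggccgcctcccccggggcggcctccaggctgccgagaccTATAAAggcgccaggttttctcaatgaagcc
NAMPT: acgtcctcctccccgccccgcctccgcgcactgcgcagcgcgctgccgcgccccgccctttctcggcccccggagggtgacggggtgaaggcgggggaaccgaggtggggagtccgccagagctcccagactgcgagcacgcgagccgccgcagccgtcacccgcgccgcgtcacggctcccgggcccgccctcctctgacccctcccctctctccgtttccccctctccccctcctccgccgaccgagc

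The NMRK2 window held TATAAA with its first base 31 bases before the start, and the NAMPT window held none of the motifs searched. The other motifs were CACGTG and CATGTG, the E-box forms bound by MITF, the pigment cell regulator, and its relatives. All were searched on both strands. RefSeq windows were found for 8 of the 10 members (14 windows, several genes having more than 1 start). TATAAA was in 2 of the 14 windows (NMRK2 and 1 of NADK), against 10.7% of all 35116 windows of this length. CACGTG was in 3 of the 14 (1 each of NADK, NADK2 and NNT), against 6.34% of all windows, and CATGTG in 1, of NADK, against 9.42%. G+C made up 66.8% of the NMRK2 window and 77.2% of the NAMPT window, and the median over all windows was 58.0%. A match to these letters is a description of the window, not a bound site.

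NMRK1, NAMPT and NAPRT, the enzymes of the other entry steps, differed between the groups by far smaller amounts than NMRK2. NMRK1 (ENSG00000106733.20_2), which phosphorylates the same riboside as NMRK2, was at 3.98 and 3.89 FPKM in parental and at 2.62 and 2.67 FPKM in resistant libraries. NAMPT (ENSG00000105835.11_3), which makes nicotinamide mononucleotide and limits the rate of salvage, was at 15.3 and 15.0 FPKM in parental and at 12.4 and 9.54 FPKM in resistant libraries. NAPRT (ENSG00000147813.15_2), which takes nicotinic acid into the Preiss-Handler route, was at 5.14 and 4.88 FPKM in parental and at 4.28 and 4.20 FPKM in resistant libraries. In all 3 genes both resistant libraries were below both parental libraries, as in 31.8% of all tested genes. The log2 differences were -0.44 ± 0.17 for NMRK1, -0.44 ± 0.19 for NAMPT and -0.20 ± 0.17 for NAPRT (SE). None passed limma with Benjamini-Hochberg adjustment over all tested genes (adjusted p = 0.307, 0.341 and 0.602). For NAMPT the difference was -0.27 without resistant replicate 2 and -0.62 without resistant replicate 1.

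Shares within a library do not depend on how libraries are scaled to each other. Of the summed FPKM of NMRK2, NMRK1, NAMPT and NAPRT, NMRK2 made up 86.0% and 87.5% in parental cells and 42.6% and 45.8% in resistant cells. NAMPT made up 8.76% and 7.92% in parental cells and 36.9% and 31.5% in resistant cells. The sum itself was 174 and 190 FPKM in parental cells, against 33.6 and 30.3 FPKM in resistant cells, and without NMRK2 it was 24.4 and 23.8 against 19.3 and 16.4 FPKM. NMRK2 was thus the most abundant of the 4 transcripts in every library. Its ratio to NMRK1 was 37.7 and 42.6 in parental cells and 5.45 and 5.19 in resistant cells, and its ratio to NAMPT was 9.82 and 11.0 against 1.15 and 1.45.

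**Figure D2:**
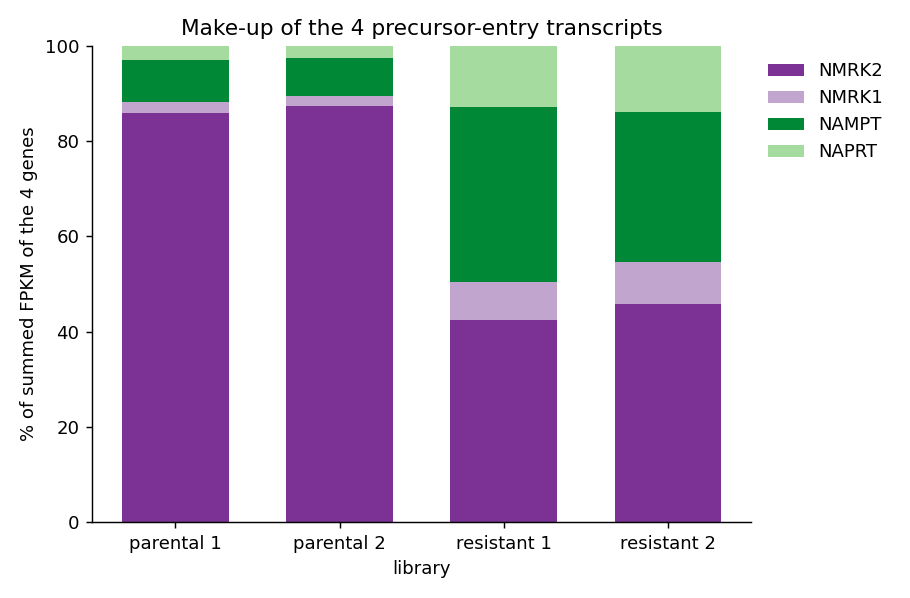
Stacked bars of the share of summed FPKM (y axis, %) held by NMRK2, NMRK1, NAMPT and NAPRT in each library (x axis). NMRK2 holds 86.0% and 87.5% in the parental bars and 42.6% and 45.8% in the resistant bars, and the NAMPT part is taller in the resistant bars.

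Of the enzymes that finish NAD, NMNAT1 was slightly more abundant in resistant libraries and NADSYN1 overlapped between the groups. NMNAT1 (ENSG00000173614.13_3), the nuclear adenylyltransferase that completes NAD from its mononucleotide, was at 2.36 and 2.03 FPKM in parental and at 2.99 and 3.35 FPKM in resistant libraries. Both resistant libraries were above both parental libraries, with a log2 difference of 0.38 ± 0.18 (SE) that did not pass (limma adjusted p = 0.357). NADSYN1 (ENSG00000172890.11_3), which amidates the acid precursor to NAD, was at 1.48 and 1.25 FPKM in parental and at 1.73 and 1.35 FPKM in resistant libraries. It was the least abundant member in both groups, and its log2 difference was 0.10 ± 0.17 (SE, limma adjusted p = 0.805) and -0.01 without resistant replicate 1.

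Of the NAD kinases, NADK differed between the groups by about the spread between replicates, and NADK2 by less than that spread. NADK (ENSG00000008130.15_2), the cytosolic kinase, was at 6.52 and 5.79 FPKM in parental and at 5.65 and 4.92 FPKM in resistant libraries. The groups did not overlap but their nearest values were close, and the log2 difference was -0.19 ± 0.19 (SE, limma adjusted p = 0.646). It was -0.10 without resistant replicate 2 and -0.27 without resistant replicate 1. NADK2 (ENSG00000152620.12_2), the mitochondrial kinase, was at 5.47 and 7.09 FPKM in parental and at 6.77 and 4.73 FPKM in resistant libraries. The ranges overlapped in part, with a log2 difference of -0.12 ± 0.24 (SE, limma adjusted p = 0.834), which was 0.04 without parental replicate 2 and 0.10 without resistant replicate 2.

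NNT (ENSG00000112992.16_3) encodes the transhydrogenase of the inner mitochondrial membrane, which uses the proton gradient to pass electrons from NADH to NADP. It was at 17.5 and 33.8 FPKM in parental and at 45.1 and 35.9 FPKM in resistant libraries. Both resistant values were above both parental values, yet the parental replicates differed more from each other than parental replicate 2 did from resistant replicate 2. The log2 difference was 0.70 ± 0.33 (SE) and did not pass (limma adjusted p = 0.362). Without parental replicate 1 it was 0.25, and without parental replicate 2 it was 1.15. NNT was the member of highest mean FPKM in resistant cells and stood second to NMRK2 in parental cells.

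**Figure D3:**
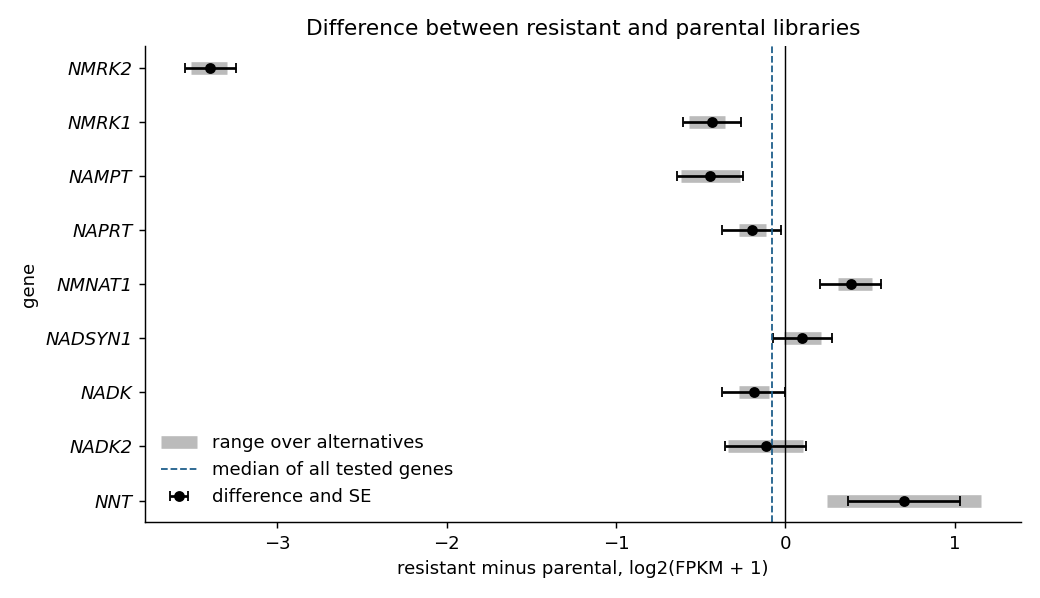
Difference between resistant and parental libraries on the log2(FPKM + 1) scale (x axis) for the 9 genes (y axis), with points and bars for the estimate and its SE from limma, grey bands for the range over the alternative settings, and a dashed line at the median of all tested genes. NMRK2 sits at -3.40 and the other genes lie between -0.44 and 0.70, with NADK2 and NADSYN1 reaching both sides of 0 over the alternatives.

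Levels in FPKM are per length and can be set against each other. In parental cells the order from high to low was NMRK2, NNT, NAMPT, NADK2, NADK, NAPRT, NMRK1, NMNAT1 and NADSYN1, and only NADK2 and NADK had ranges that overlapped. In resistant cells NNT led, followed by NMRK2, NAMPT, NADK2, NADK, NAPRT, NMNAT1, NMRK1 and NADSYN1, again with an overlap between NADK2 and NADK only. NMRK2 and NNT exchanged places, as did NMRK1 and NMNAT1.

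Apart from NMRK2, 8 members were tested and 0 passed in limma over all genes. Of the 10271 tested genes, 0.0584% passed, 0.00974% in the lower and 0.0487% in the higher direction. NMRK2 itself is in the lower share, from which nothing is read since it was chosen there. At an unadjusted limma p under 0.05, NMRK1 alone of the 8 was lower and 0 were higher, against 10.2% and 6.06% of all tested genes. The groups did not overlap in 4 of the 8 in the lower direction (31.8% of all tested genes) and in 2 in the higher direction (19.1%), beside 51.0% of all tested genes in either direction. These shares, over so few genes, say little about the set. The median log2 difference of the 8 was -0.15, beside -0.08 over all tested genes. A p above the threshold does not show that a gene was equal in both groups. An exact permutation test of 2 against 2 libraries has a smallest p of 0.333, and every call therefore uses limma's shared spread.

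Reads of some members could be shared with other loci. NAMPT has 3 annotated pseudogenes and NMNAT1 has 5, and NAMPT, NAPRT, NMNAT1, NADSYN1, NADK2 and NNT overlap a gene on the opposite strand. The libraries were stranded, but no source used here says whether counting used the strand, so the levels of these 6 genes are less certain than those of NMRK2, NMRK1 and NADK.

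None of the measured genes around NMRK2 differed by as much as NMRK2. Within 250 kb on either side, release 29 lists 16 other protein-coding genes, of which 10 had a value and 9 were tested. None of the 9 passed (limma adjusted p from 0.179 to 0.984), while 2 were higher and 2 lower at an unadjusted limma p under 0.05, beside 6.06% and 10.2% of all tested genes. DAPK3, a death-associated kinase that lies 16037 bases beyond the end of NMRK2, was at 3.44 and 3.11 FPKM in parental and at 6.45 and 5.21 FPKM in resistant libraries. The abundant translation elongation factor EEF2, 33640 bases beyond it, was at 471 and 393 FPKM in parental and at 287 and 221 FPKM in resistant libraries. Their log2 differences were 0.67 ± 0.19 for DAPK3 and -0.77 ± 0.18 for EEF2 (SE), opposite in sign. Of the others, PIP5K1C, a lipid kinase, was at 0.63 ± 0.18 and the tyrosine kinase MATK at -0.58 ± 0.18 (SE). The mitochondrial ribosomal protein gene MRPL54 was at -0.46 ± 0.19 (SE). Groups did not overlap in any of these. MRPL54 ranged from -0.65 to -0.27 over the alternatives, with -0.27 without resistant replicate 2. PIAS4, ZBTB7A, MAP2K2 and the sirtuin gene SIRT6 had overlapping groups, as did APBA3, which lay below 1 FPKM on average. The median over the 9 was -0.01.

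**Figure D4:**
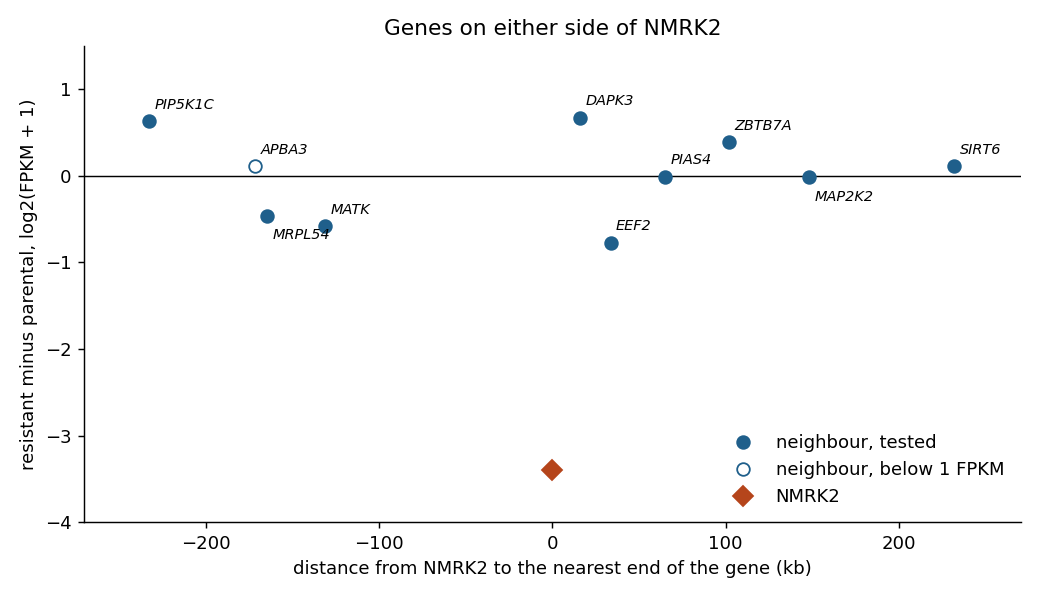
Difference between resistant and parental libraries on the log2(FPKM + 1) scale (y axis) against the distance from NMRK2 to the nearest end of each neighbouring gene (x axis, kb). The 10 neighbours lie between -0.77 and 0.67, and NMRK2 (diamond) lies at -3.40.

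Of the 5 lists of NAD-linked genes outside the set, 87 genes in all, 64 had a value and 58 were tested. None passed in limma over all genes (smallest adjusted p = 0.0788). At an unadjusted limma p under 0.05, 9 of the 58 were lower and 0 higher, beside 10.2% and 6.06% of all tested genes. The groups did not overlap in 26 of the 58 in the lower direction, beside 31.8% of all tested genes, and in 4 in the higher direction, beside 19.1%. Their median log2 difference was -0.16, beside -0.08 over all tested genes.

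Among the 15 genes of NADPH regeneration, 10 were tested, of which 6 were lower and 2 higher with groups that did not overlap, beside 31.8% and 19.1% of all tested genes (median -0.15, beside -0.08). IDH1, the cytosolic isocitrate dehydrogenase that makes NADPH, was at 161 and 160 FPKM in parental and at 78.2 and 75.2 FPKM in resistant libraries. IDH1 overlaps the antisense gene IDH1-AS1. Its replicates lay close together, and its log2 difference of -1.05 ± 0.13 (SE) gave the smallest adjusted p of the 58 genes (limma adjusted p = 0.0788). Over the alternatives this p ranged from 0.0586 to 0.303. IDH1 and NMRK2 were at similar FPKM in parental cells, and IDH1 was the higher of the pair in both resistant libraries. Its mitochondrial relative IDH2 was at 28.9 and 25.0 FPKM in parental and at 21.5 and 14.5 FPKM in resistant libraries. The IDH2 log2 difference was -0.58 ± 0.23 (SE), and it was -0.31 without resistant replicate 2 and -0.85 without resistant replicate 1. PGD, an enzyme of the pentose phosphate pathway, overlapped between the groups (34.2 and 39.5 against 42.5 and 33.2 FPKM). The folate enzyme MTHFD1 was at -0.34 ± 0.19 and glutamate dehydrogenase, GLUD1, at -0.10 ± 0.16 on the log2 scale (SE). Without resistant replicate 2 they were at -0.18 and -0.04, and without resistant replicate 1 at -0.50 and -0.16.

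Of 26 enzymes that use up NAD, 18 were tested, 8 being lower and 1 higher with groups that did not overlap, beside 31.8% and 19.1% of all tested genes (median -0.15, beside -0.08). PARP1, the main polymerase of the DNA damage response, was at 59.1 and 53.5 FPKM in parental and at 42.3 and 43.9 FPKM in resistant libraries. The log2 differences of the cytosolic sirtuin SIRT2 (-0.68 ± 0.22 SE), the mitochondrial SIRT5 (-0.62 ± 0.22 SE), PARP6 (-0.55 ± 0.20 SE) and PARP2 (-0.43 ± 0.27 SE) did not pass (limma adjusted p from 0.264 to 0.479). Without resistant replicate 2 the difference was -0.09 for PARP2 and -0.39 for SIRT5, and without resistant replicate 1 it was -0.78 and -0.86. PARP4 (11.9 and 12.3 against 15.1 and 8.84 FPKM) and the tankyrase TNKS2 (8.78 and 8.88 against 11.4 and 6.56 FPKM) overlapped between the groups. The NAD glycohydrolase genes CD38, BST1 and SARM1 were not analysed here.

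In the de novo route 5 of 13 listed genes had a value and all 5 were tested. QPRT, which turns quinolinic acid into the acid mononucleotide, was the most abundant at 24.0 and 20.5 FPKM in parental and 16.3 and 27.7 FPKM in resistant libraries, and overlapped. The kynurenine aminotransferase KYAT1 was at 2.88 and 2.56 against 1.44 and 1.64 FPKM and its relative KYAT3 at 9.48 and 9.06 against 7.31 and 6.42 FPKM, while AADAT, of the same activity, overlapped (4.42 and 5.08 against 5.25 and 4.00 FPKM). IDO1, IDO2, TDO2 and KMO, which act early in this route, were not analysed here.

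Of 21 genes of precursor supply, transport and turnover, 14 were tested, with 5 lower and 1 higher in groups that did not overlap, beside 31.8% and 19.1% of all tested genes (median -0.17, beside -0.08). NAXE, an epimerase that repairs damaged NADH and NADPH, was at 68.4 and 62.2 FPKM in parental and at 40.3 and 50.1 FPKM in resistant libraries. The nucleoside transporters of the plasma membrane, a route for nicotinamide riboside, were at 22.9 and 18.5 against 17.7 and 14.8 FPKM for SLC29A1 and at 6.16 and 4.10 against 3.35 and 3.25 FPKM for SLC29A2. The nucleotidases NT5C and NT5C3A had log2 differences of -0.54 ± 0.21 and -0.22 ± 0.18 (SE). Without parental replicate 1 the log2 difference was -0.34 for NT5C, -0.36 for NT5C3A, -0.25 for SLC29A2 and -0.19 for SLC29A1. Without parental replicate 2 it was -0.08 for NT5C3A, -0.73 for NT5C, -0.73 for SLC29A2 and -0.48 for SLC29A1.

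Of 12 genes of NADH shuttles and lactate, 11 were tested, with 5 lower and 0 higher in groups that did not overlap, beside 31.8% and 19.1% of all tested genes (median -0.30, beside -0.08). LDHA, which makes lactate while turning NADH back into NAD, was at 95.7 and 95.5 FPKM in parental and at 66.5 and 46.9 FPKM in resistant libraries (log2 difference -0.77 ± 0.20 SE, limma adjusted p = 0.208). Without resistant replicate 1 the LDHA difference was -1.01, and without resistant replicate 2 it was -0.52. The partner subunit LDHB was at 445 and 427 against 435 and 393 FPKM and overlapped. Both have annotated pseudogenes (6 and 3), so their levels are less certain. The malate-aspartate shuttle enzymes GOT1, GOT2 and MDH2 had log2 differences of -0.41 ± 0.19, -0.44 ± 0.15 and -0.46 ± 0.20 (SE), none past the threshold (limma adjusted p from 0.273 to 0.360). GOT1 was at -0.26 without parental replicate 2 and at -0.56 without parental replicate 1. MDH2 was at -0.23 without resistant replicate 2 and at -0.69 without resistant replicate 1.

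**Figure D5:**
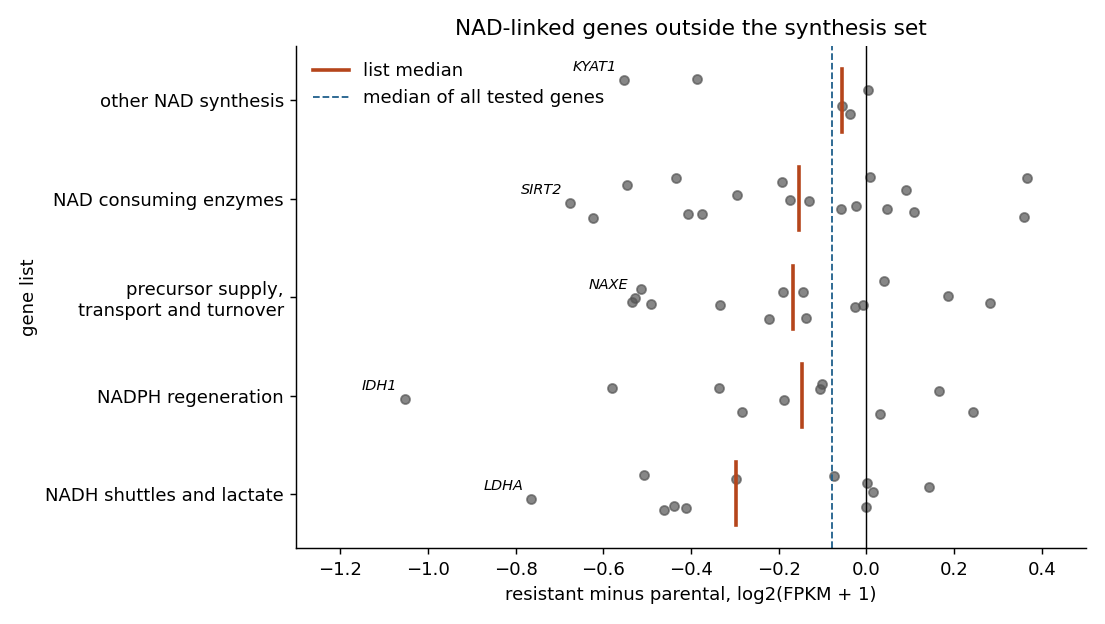
Differences between resistant and parental libraries on the log2(FPKM + 1) scale (x axis) for the tested genes of 5 lists of NAD-linked genes (y axis, 1 point a gene, spread vertically for display only), with a red bar at the list median and a dashed line at the median of all tested genes. IDH1 lies farthest from 0, at -1.05, and no gene reaches -3.40, the difference of NMRK2.

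NMRK2 is known from muscle, so muscle markers were looked at beside it. Of 24 listed, 5 had a value and 2 were tested, and the defining genes MYOD1, MYOG, DES and CKM were not analysed here. The 5 summed to 113 and 116 FPKM in parental cells, and to 148 and 90.1 FPKM in resistant cells, most of it from the integrin subunit ITGB1, which many cell types express. The slow troponin TNNT1 was at 23.5 and 17.4 against 14.4 and 11.8 FPKM (log2 difference -0.60 ± 0.22 SE, limma adjusted p = 0.287), and TNNC1 was at 0.0815 and 0.351 against 1.07 and 0.498 FPKM. Without parental replicate 1 the TNNT1 difference was -0.39, and over the alternatives it ranged from -0.81 to -0.39. Their part in the NMRK2 difference was not tested.

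Of 14 genes for energy sensing and the MITF family, 10 were tested and none passed in limma (smallest adjusted p = 0.302). At an unadjusted limma p under 0.05, 1 was lower and 0 higher, beside 10.2% and 6.06% of all tested genes. MITF was at 35.3 and 37.4 FPKM in parental and at 9.64 and 31.8 FPKM in resistant libraries. Both resistant values were below both parental values and resistant replicate 1 was the lowest by far. The log2 difference of MITF (limma adjusted p = 0.403) was -0.19 without that library and -1.81 without resistant replicate 2, and its part in the NMRK2 difference was not tested. The fatty acid regulator PPARA was at 1.89 and 2.33 against 0.566 and 1.57 FPKM, with a log2 difference of -0.63 ± 0.28 (SE) that was -0.27 without resistant replicate 1 and -0.99 without resistant replicate 2. It was -1.06 with a pseudocount of 0.1 and -0.97 after rescaling to a common sum, which also lowered the relative weight of the pseudocount. The kinase subunit PRKAG2 was at 3.60 and 3.62 against 2.63 and 1.65 FPKM, while its catalytic partner PRKAA1 and the nuclear receptor ESRRA overlapped between the groups. Without resistant replicate 2 the PRKAG2 difference was -0.35 and without resistant replicate 1 it was -0.80, beside -0.57 with all libraries.

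By a rule of likeness, the 5 tested genes whose profile over the 4 libraries (log2 values centred on their mean) lay nearest to that of NMRK2 were ENSG00000273088, MTURN, NDRG1, DCT and COQ10A, at Euclidean distances of 0.919 to 1.47. ENSG00000273088 was at 4.11 and 11.8 FPKM in parental libraries and listed at 0 in both resistant libraries, which may be a failed estimate. MTURN, a gene of neural progenitor differentiation, was at 7.94 and 9.40 against 1.15 and 1.24 FPKM, and the hypoxia-induced NDRG1 at 8.13 and 5.49 against 0.824 and 0.715 FPKM. The melanin enzyme gene DCT was at 4.88 and 5.46 against 0.486 and 0.517 FPKM, and COQ10A, which encodes a coenzyme Q binding protein, at 9.29 and 8.20 against 2.10 and 0.839 FPKM. All 5 were far less abundant than NMRK2 in parental cells. They were picked by the same 4 values, so their likeness is a description with no test.

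Some measures of the whole libraries differed between groups or in 1 library. Summed FPKM was 282602 and 283387 in parental cells and 292736 and 293481 in resistant cells, and mitochondrially encoded genes took 37.2% to 37.9% of it in parental cells and 40.2% to 40.6% in resistant cells. The median gene was at 4.17 FPKM in resistant replicate 2 and at 4.70 to 4.85 FPKM in the other libraries, and 80 genes were listed at 0 there against 25 to 59. Their part in the results was not tested. All 7 pigment cell markers had a value and were tested. Groups did not overlap in 3 lower and 1 higher, beside 31.8% and 19.1% of all tested genes, and overlapped in 3. TYRP1 was between 1484 and 2143 FPKM and MLANA between 207 and 221 FPKM. The log2 differences were 0.28 ± 0.18 for TYRP1 (-0.16 with quantile normalization), 0.28 ± 0.23 for TYR, -0.04 ± 0.12 for MLANA, -0.41 ± 0.25 for PMEL, -0.58 ± 0.17 for SOX10 and -2.04 ± 0.17 for DCT (SE). No marker passed in limma (smallest adjusted p = 0.0544, for DCT). DCT passed after rescaling to a common sum (limma adjusted p = 0.0497), which also lowered the relative weight of the pseudocount. It passed under another alternative as well. DCT was also picked by likeness to NMRK2 over these same libraries, so nothing is read from this. Its difference was -3.13 with a pseudocount of 0.1. TYRP1 was at 0.03 without resistant replicate 1 and at 0.53 without resistant replicate 2. Of 14 markers of epithelial cells, fibroblasts, leukocytes and endothelium, 3 had a value, and their summed FPKM was 21.7 to 26.1 in parental and 11.8 to 16.1 in resistant libraries. CD68, a leukocyte and lysosome marker, made up most of it in parental libraries, at 21.0 and 15.7 FPKM. In resistant libraries CD68 was at 7.24 and 4.97 FPKM. The fibroblast marker LUM was at 4.45 and 5.16 against 7.69 and 4.92 FPKM, and COL1A1 at 0.742 and 0.841 against 1.16 and 1.89 FPKM. PTPRC, CD3E, EPCAM and PECAM1 were not analysed here, and the part of these markers in the results was not tested.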

How the data were processed

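FPKM values for 11650 genes in each of 4 libraries were deposited by the authors, per the file headers. The build was hg38, per the submitters' processing notes. Not given in the sources used here: aligner, FPKM program, annotation release and filters. The smallest larger group mean was 0.5009 FPKM, so genes below about that level were not analysed here. The cell line field differs between samples, but every title says 92.1, and all libraries were taken as 92.1. True depth is unknown: in 701 genes with 1 transcript, at most 5 low values lay within 1% of each other, so no step of 1 fragment could be read.

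Gene IDs were matched to current symbols for 11575 genes and to GENCODE release 29 for 11596. Values were used as log2(FPKM + 1) with no rescaling. Genes averaging 1 FPKM or more entered a two-sided test in limma 3.58.1 under R 4.3.3, using its variance trend. P-values were adjusted by Benjamini-Hochberg over these genes, with a threshold of 0.05. The fit was tested on simulated data. Python 3.11.15 made the tables and figures. Groups and replicates came from the titles, and 12 alternatives were run.

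The members and the 10 gene lists were chosen with earlier results of these data known. Named genes were all members with a value, and for each other list those past the threshold, the 3 of highest mean FPKM and up to 4 of largest change with groups that did not overlap. They also included neighbours within 250 kb of NMRK2 and the 5 nearest profiles. BLOC1S5-TXNDC5 was named after its values were seen. Of the 66 named genes with a position, 13 have an annotated pseudogene and 34 overlap a gene on the opposite strand. One named gene is not reported here.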

Additional observations from a re-analysis of the deposited data

How the results depend on the processing

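The NMRK2 difference kept its sign in all 12 alternatives, from -3.51 to -3.29. It was -3.48 with a pseudocount of 0.1, -3.51 when libraries were brought to 1 common sum and -3.29 with median-of-ratios scaling. Each is farther from -3.40 than the spread between replicates (0.0750). The common sum was larger than the sum of any library, and the pseudocount stayed at 1. That setting therefore also lowered the relative weight of the pseudocount, and its results cannot be read as library scaling alone. Limma called 5 genes higher and 1 lower. It called 3 higher with a pseudocount of 0.1, with median-of-ratios scaling or with quantile normalization, and 3 lower after rescaling to a common sum. Leaving out 1 library gave 0 to 19 genes higher and 0 to 13 lower. No NAD-linked gene of the 5 lists was called in any alternative.

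The sign turned in some named genes. With median-of-ratios scaling the log2 differences were 0.046 for AADAT, 0.045 for QPRT, 0.068 for TNKS2, 0.037 for PARP4 and 0.029 for LDHB. With quantile normalization they were 0.038 for AADAT, 0.0049 for QPRT, 0.081 for TNKS2, 0.058 for PARP4 and -0.16 for TYRP1, which was at 0.28 without it. PGD was at -0.018 after rescaling to a common sum. The median over all tested genes moved too. It was -0.079 with no scaling, 0.0088 with median-of-ratios scaling, -0.012 with quantile normalization and -0.14 after rescaling to a common sum. The cause of the turns was not tested.

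Besides NMRK2, 54 of the named genes were followed over the alternatives. The neighbours PIAS4, ZBTB7A, MAP2K2 and APBA3 were not among them, nor were PMEL, MLANA, LUM, ITGB1, ESRRA, PRKAA1 and TNNC1. Within these 54, leaving out 1 library gave ranges that crossed 0 for NADSYN1 (-0.0090 to 0.21), NADK2 (-0.34 to 0.10), AADAT (-0.20 to 0.12), QPRT (-0.42 to 0.31), TNKS2 (-0.38 to 0.33), PARP4 (-0.41 to 0.30), PGD (-0.14 to 0.20) and SIRT6 (-0.035 to 0.25).

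The replicate block, which pairs libraries by number, left the NMRK2 difference at -3.40 and called 4 genes higher and 1 lower. Deviations of same-numbered libraries correlated at -0.07 over genes, so the numbers are not shown to pair them. DCT, MTURN, NDRG1 and ENSG00000273088 were picked by likeness to NMRK2 over the same 4 libraries. Their passes in limma under an alternative therefore carry no test.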
